A study of Mus musculus with 6 samples.

Results

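The 7 mRNAs described here encode secreted antimicrobial and growth-linked proteins of the gut, namely the Reg lectins Reg1, Reg3a, Reg3b, Reg3g and Reg4 and the Paneth cell products Lyz1 and Defa21. They were chosen by gene symbol, through the Ensembl gene ID of each row, and are 7 of the 18437 mRNAs listed in any of the libraries. Ribo-seq, which sequences the mRNA fragments covered by ribosomes, was performed on tissues of WT C57BL/6J mice at 4 weeks of age without treatment. Each of 6 labels (brain, heart, lung, kidney, small intestine and colon) had 1 library, with between 4504853 and 10635031 reads on coding sequences (CDSs). Macrophage libraries, which the study also made, were not analysed here, and how many mice each tissue library came from is not given in the sources used here. Ribosome density is given as RPKM, reads per kilobase of CDS scaled to the library's total of reads on CDSs, so that levels of different mRNAs are per length.

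Paneth cells sit at the base of the crypts of the small intestine and release granules with alpha-defensins, lysozyme and other antibacterial proteins. Reg3b and Reg3g are C-type lectins that intestinal epithelial cells secrete, and Reg3g binds the peptidoglycan of Gram-positive bacteria. Their transcription in the gut is known to respond to IL-22 through STAT3. Reg1, first described in the pancreas, and Reg4, a marker of enteroendocrine and deep crypt secretory cells, belong to the same family. Mouse alpha-defensins, also called cryptdins, are made as precursors and are cut to their active form by matrilysin (Mmp7).

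The labels did not all match the tissue markers, which sets how each value below can be read. Of the lists of 5 markers per tissue, all 5 small intestinal markers were highest in the library labelled brain, all 5 colon markers in that labelled kidney, all 5 kidney markers in that labelled colon and all 5 brain markers in that labelled small intestine. Heart and lung markers were highest under their own labels, 5 of 5 in each. Groups were kept as labelled, and each library is named by its label throughout. With 1 library per label, no test between tissues was possible, and every interval covers counting error only. In a bulk tissue, fewer cells of a type and less mRNA per cell cannot be told apart.

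Defensins and lysozymes are families of near-identical genes, so the sequence that can be assigned to 1 mRNA comes before its level. The stretches shown here are bases 202 to 261 of the CDS of Defa21, Defa22 and Defa24, which lie in the part that encodes the cysteine-rich end of the precursor, and bases 61 to 120 of the CDS of Lyz1 and Lyz2. Capitals mark the bases that differ from the first sequence of each set, and all were read from GRCm39.
Defa21: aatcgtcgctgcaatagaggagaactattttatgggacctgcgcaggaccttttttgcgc
Defa22: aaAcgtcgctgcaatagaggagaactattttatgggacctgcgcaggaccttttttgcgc
Defa24: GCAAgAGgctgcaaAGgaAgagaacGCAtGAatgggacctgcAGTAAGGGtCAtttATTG
Lyz1: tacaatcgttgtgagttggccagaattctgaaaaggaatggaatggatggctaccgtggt
Lyz2: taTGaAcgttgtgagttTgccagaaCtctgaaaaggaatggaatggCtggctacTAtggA

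Over the whole CDS of 279 bases, Defa22 differed from Defa21 at 2 bases and Defa24 at 60 bases. Lyz2 differed from Lyz1 at 22 of 444 bases. A fragment of 29 nt, a usual footprint length, was unique to Defa21 at 58 of its 251 positions (23.1%), and at none of them when 1 mismatch was allowed. For Lyz1 the shares were 59.4% exactly and 41.3% within 1 mismatch. The Reg mRNAs were nearly free of this limit, with 98.6% of windows unique for Reg3b and for Reg3g and 100% for Reg1, Reg3a and Reg4.

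The translated CDSs showed the same order of likeness. Defa21 and Defa22 shared 97.8% of aligned residues, Lyz1 and Lyz2 91.9%, and Reg3b and Reg3g 71.3%. Reg3a was 58.9% identical to Reg3b and 58.6% to Reg3g. Reg4 stood furthest from the others, with 29.5% to 39.2% identity to the 6 other Reg proteins. Defa21 encodes 93 residues with 6 cysteines, and Lyz1, an enzyme that cuts bacterial cell walls, encodes 148 residues with a net charge of 11, counted as lysine and arginine minus aspartate and glutamate over the whole precursor.

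Defa21 had the highest RPKM of all mRNAs in the library labelled brain, where the small intestinal markers were. Its level there was 35599 RPKM from 105627 reads, ranking 1 of 11520 mRNAs with reads. It was 158 RPKM in the library labelled kidney (334 reads) and 123 RPKM in that labelled small intestine (263 reads). The library labelled colon held 15.1 RPKM (19 reads), that labelled heart 1.31 RPKM (3 reads) and that labelled lung 0.927 RPKM (2 reads). A single library therefore stood above the other 5, by a factor of 225.5 over the next, with a 95% interval of 202.5 to 251.8. The intervals of heart and lung overlapped, while kidney (141.4 to 175.7 RPKM) and small intestine (108.9 to 139.1 RPKM) did not. Pooled over the 12 listed Defa mRNAs, that order turned, with 16.0 RPKM under kidney and 20.6 RPKM under small intestine.

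The other defensin mRNAs listed were less dense than Defa21 in the brain-labelled library. The annotation holds 28 Defa genes, of which 12 were listed in any library, and 13 of the 16 unlisted ones had no unique window of 29 nt at all. In the brain-labelled library Defa24 reached 5262 RPKM, Defa39 1282 RPKM, Defa40 426 RPKM and Defa30 226 RPKM. Defa26 had 123 RPKM and Defa38 118 RPKM, Defa41 and Defa27 had 5 and 2 reads, and Defa29 and Defa34 had none there. Defa22, 2 bases from Defa21, had 133 RPKM there, a ratio to Defa21 of 0.00375 (0.00339 to 0.00414). Together the 12 Defa mRNAs took 1.21% of that library, or 129124 reads. Counting only unique windows in place of the CDS length moved Defa21 from 35599 to 171240 and Defa22 from 133 to 1241 in the same unit, so Defa21 stayed above Defa22. By the Methods, reads that fit several defensins were dropped, and the level of each defensin is uncertain for that reason.

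**Figure D1:**
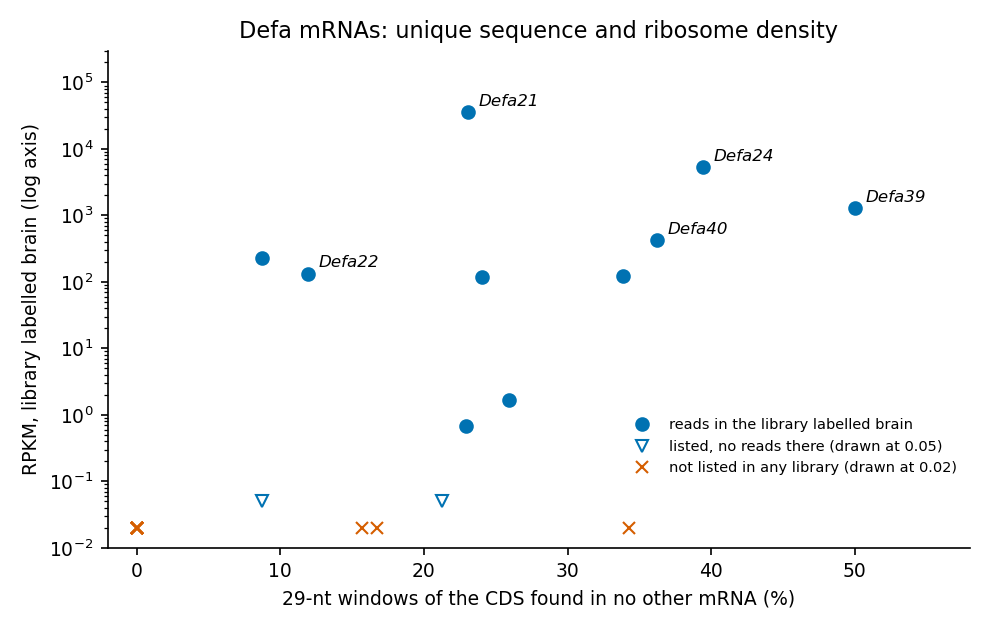
Defa mRNAs by the percent of their 29-nt CDS windows found in no other mRNA (horizontal axis) and by RPKM in the library labelled brain (vertical log axis). Crosses are the 16 annotated Defa genes listed in no library, 13 of which sit at 0% unique windows, and Defa21 stands highest with 23.1% of its windows unique.

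The ratio of Defa24 to Defa21 differed between libraries. Under the brain label it was 0.148 (95% interval 0.145 to 0.150), and it was 0.198 (0.149 to 0.258) under kidney. In the small intestine-labelled library, which held the brain markers, it was 0.787 (0.653 to 0.948) from 207 and 263 reads. Under the heart label Defa24 exceeded Defa21, with 34 reads against 3, a ratio of 11.3 (3.56 to 57.7), and under lung with 13 reads against 2, a ratio of 6.50 (1.47 to 59.3). Defa21 and Defa24 were thus not at a fixed proportion across libraries beyond counting error, and whether shared sequence had a part in this was not tested.

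Lyz1, the lysozyme of Paneth cells, was highest in the same library but at a far lower level than Defa21. It reached 149 RPKM under the brain label (703 reads) and 65.6 RPKM under the lung label (225 reads). It was 8.25 RPKM under small intestine (28 reads), 1.93 RPKM under heart (7 reads), 1.19 RPKM under kidney (4 reads) and 0.500 RPKM under colon (1 read). The last 3 had overlapping intervals and did not differ beyond counting error. Lyz1 was 125 times higher in the brain-labelled than in the kidney-labelled library (48.7 to 461), and 2.27 times higher than under the lung label (1.95 to 2.65). Pooled with its relative Lyz2, the order of brain and lung turned, with 75.1 and 396 RPKM. Small intestine, at 4.71 RPKM pooled, then lay below colon (6.00 RPKM) and heart (26.3 RPKM).

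Lyz2, the lysozyme of macrophages and neutrophils, was ordered the other way between the brain-labelled and lung-labelled libraries. Its level was 727 RPKM in the library labelled lung (2496 reads) and 1.27 RPKM in that labelled brain (6 reads). The ratio of Lyz1 to Lyz2 was 117 (53.6 to 320) under the brain label and 7.0 (2.45 to 27.5) under the small intestine label. It lay below 1 in the other 4 libraries, from 0.0380 under heart to 0.148 under kidney, and was 0.0901 (0.0783 to 0.103) under lung. All 8 listed neutrophil and monocyte markers were highest in the lung-labelled library, with a summed level of 1354 RPKM against 5.25 to 67.8 RPKM in the other 5. Under brain, 5 of the 8 were at 0, namely S100a9, Lcn2, Ngp, Elane and Mpo. Under lung, S100a9, a calcium-binding protein of neutrophils, had 319 RPKM, and the iron-binding proteins Ltf and Lcn2 had 114 and 93.6 RPKM. Of the 8 macrophage markers 3, Lyz2 among them, were highest under lung and 4 under kidney. Their sums ran from 81.1 RPKM under colon to 908 RPKM under lung. Lyz2 is on both lists, and its 727 RPKM under lung is part of the 1354 and of the 908 RPKM. Neither sum is thus independent of Lyz2. The complement chains C1qa and C1qb were highest under kidney, at 144 and 50.04 RPKM, and the mannose receptor Mrc1 under lung, at 41.2 RPKM. The part of these cells, or of sequence shared with Lyz2, in the Lyz1 reads of the lung-labelled library was not tested.

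**Figure D2:**
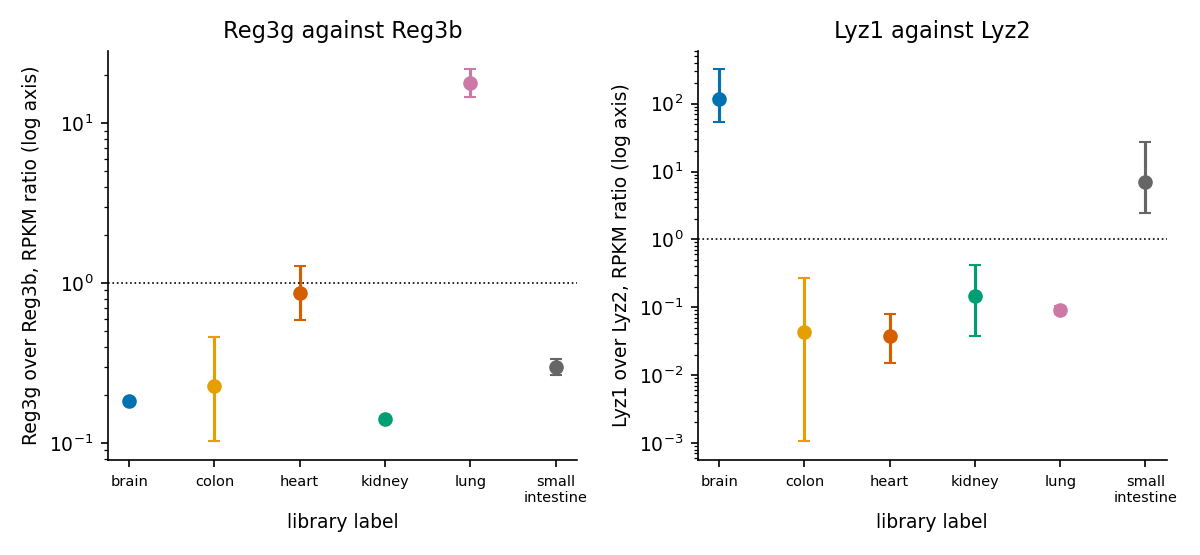
Ratio of Reg3g to Reg3b (left) and of Lyz1 to Lyz2 (right) within each library, as RPKM ratios on log axes with 95% intervals of counting error, where the dotted line marks equal density. Reg3g exceeded Reg3b by a ratio of 17.7 under the lung label, and Lyz1 exceeded Lyz2 under the brain label (117) and the small intestine label (7.0).

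Reg3b had the highest density of the Reg mRNAs in 5 of the 6 libraries, though under the heart label not beyond counting error. It reached 26263 RPKM in the brain-labelled library (146634 reads, rank 3) and 7212 RPKM in the kidney-labelled library (28713 reads, rank 6). Density was 312 RPKM under the small intestine label (1252 reads), 26.6 RPKM under lung (108 reads), 18.6 RPKM under colon (44 reads) and 13.7 RPKM under heart (59 reads). Both libraries with intestinal markers stood above the other 4, with no overlap of intervals. Lung overlapped with colon and colon with heart. Reg3b alone took 1.38% of all reads on CDSs under the brain label and 0.379% under the kidney label.

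Reg3g, the closest relative of Reg3b here, had 4815 RPKM under the brain label (26729 reads, rank 13) and 1016 RPKM under the kidney label (4023 reads, rank 89). It was the only Reg mRNA with a high level in the lung-labelled library, at 472 RPKM from 1904 reads. The remaining libraries held 93.5 RPKM (small intestine, 373 reads), 11.9 RPKM (heart, 51 reads) and 4.25 RPKM (colon, 10 reads). These 6 values did not overlap in their intervals. Density under the lung label was 39.5 times that under the heart label (29.9 to 53.3), whereas for Reg3b the same ratio was 1.94 (1.40 to 2.71).

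The balance of Reg3g and Reg3b separated the lung-labelled library from the rest. Reg3b exceeded Reg3g by a factor of 5.45 under the brain label, 7.10 under kidney, 3.34 under small intestine and 4.37 under colon. Under the heart label the ratio of Reg3g to Reg3b was 0.869 (0.586 to 1.29), so neither was higher beyond counting error. Under the lung label it was 17.7 (14.6 to 21.7). Both mRNAs had 98.6% unique windows, so their footprints could be told apart by sequence at nearly every position.

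Reg3a was much less dense and had reads in 4 libraries. Its level was 105 RPKM in the brain-labelled library (587 reads), 7.54 RPKM in the kidney-labelled one (30 reads), 1.74 RPKM under small intestine (7 reads) and 0.246 RPKM under lung (1 read). No read was counted under colon or heart, where 3 reads would give 1.27 and 0.698 RPKM. The ratio between the brain-labelled and kidney-labelled libraries was 14.0 (9.67 to 20.9). It exceeded the ratios of Reg3b, 3.64 (3.596 to 3.688), and of Reg3g, 4.74 (4.58 to 4.90), without overlap of the intervals. Reg3a, Reg3b and Reg3g thus had unequal ratios between the same pair of libraries.

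Reg4 was the exception among the mRNAs with intestinal density, since it was not higher in the brain-labelled library. Its level was 154 RPKM there (769 reads) and 172 RPKM in the kidney-labelled library (614 reads), a ratio of 0.893 (0.802 to 0.995). There were 46 reads under heart (11.9 RPKM) and 12 under small intestine (3.33 RPKM), with none under colon and lung, where 3 reads would give 1.41 and 0.824 RPKM. RPKM depends on what else fills a library, and Kri1 alone took 22.1% of the reads under the kidney label against 2.01% under the brain label. Scaled without Kri1 and the mitochondrially encoded mRNAs, the Reg4 ratio was 0.691, and that of Reg3b was 2.82. In the heart-labelled library, the goblet cell genes summed to 254 RPKM with none of 10 at 0, against 18.7 to 123 RPKM under colon, lung and small intestine. The part of intestinal material in the 46 Reg4 reads was not tested.

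Reg1 was almost undetected. It had 6 reads in the heart-labelled library (1.48 RPKM), 3 in the lung-labelled one (0.784 RPKM) and 1 under small intestine (0.264 RPKM). Under the brain, colon and kidney labels no read was counted, where 3 reads would correspond to 0.570, 1.35 and 0.799 RPKM. Its relatives Reg2 (2 reads) and Reg3d (1 read) had reads under the heart label only. Of 14 pancreatic acinar cell genes, 10 were highest in that library, at a summed level of 26.4 RPKM, with Amy2a5 at 0. The acinar gene sum was 43.7 RPKM under kidney, where Cela1, an elastase that is not confined to the pancreas, made up 41.3 RPKM. It was 0.281 to 5.11 RPKM under the other 4 labels, with 11 of 14 genes at 0 reads under brain. Among the acinar genes of the heart-labelled library, Ctrb1 had 30 reads and Pnlip 36 reads, while Rnase1 was highest under lung (17 reads). The part of pancreatic tissue in the Reg1, Reg2 and Reg3d reads was not tested, and at 6 reads or fewer no order between libraries could be read.

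**Figure D3:**
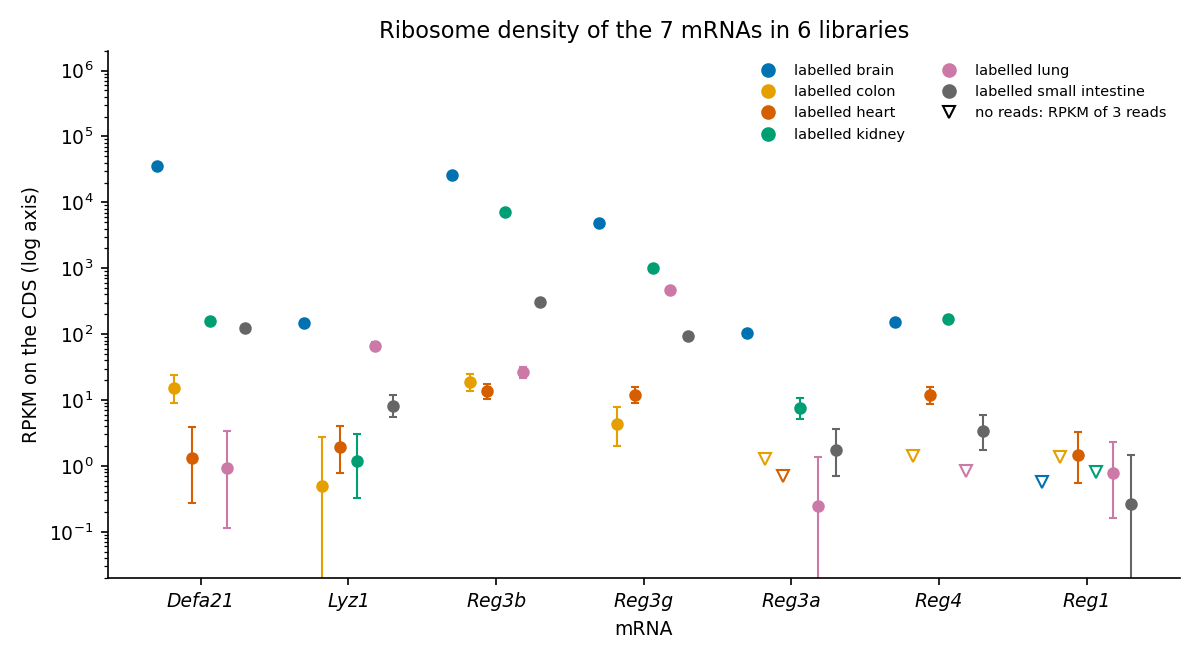
Ribosome density of the 7 mRNAs in each library, as RPKM on a log axis with exact Poisson 95% intervals of counting error. Open triangles mark libraries without reads, drawn at the RPKM of 3 reads, and the brain-labelled library is highest for all but Reg4 and Reg1.

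Counted over the set, 5 of the 7 mRNAs (Reg3a, Reg3b, Reg3g, Reg4 and Defa21) were at least 10-fold higher in the library labelled brain than in each of those labelled colon, heart, lung and small intestine. Over all 15432 mRNAs with 10 or more reads in total the share was 2.27%. The folds over the highest of those 4 libraries were 289 for Defa21, 84.2 for Reg3b, 60.3 for Reg3a, 12.9 for Reg4 and 10.2 for Reg3g, which lay just past the limit. Lyz1 missed it at 2.27, since the lung-labelled library was next, and Reg1 had no read. For the kidney-labelled library the same count was 2 of 7, namely Reg3b (23.1) and Reg4 (14.4), against 1.37% of all mRNAs. Both counts are descriptions of single libraries, for mRNAs picked with earlier results of these data in view.

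Together the 7 mRNAs took 2.64% of all reads on CDSs in the brain-labelled library (281049 reads, 95% Wilson interval 2.63 to 2.65%). The share was 0.445% under the kidney label, 0.0290% under lung, 0.0253% under small intestine, 0.00210% under heart and 0.00164% under colon. Reg mRNAs made up nearly all of it under the kidney label, 0.440% of reads, whereas under the brain label the 5 Reg mRNAs took 1.64%.

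Between the 2 libraries with intestinal markers, 5 of the 6 mRNAs with 10 or more reads were over 2-fold higher under the brain label, and none under the kidney label. Over all 12548 mRNAs tested, 27.0% were over 2-fold higher under brain and 32.5% under kidney. Among mRNAs with 100 or more reads the shares were 30.7% under brain and 15.5% under kidney. Scaled without Kri1 and the mitochondrially encoded mRNAs, the 27.0% and 32.5% became 19.6% and 37.5%. The same 5 mRNAs had ratios above 2 at that scaling. The exception was Reg4, and Reg1 had no read in either library. Ordered by size, the ratios were 225.5 for Defa21, 125 for Lyz1, 14.0 for Reg3a, 4.74 for Reg3g and 3.64 for Reg3b. Both Paneth cell products thus had larger ratios than any Reg mRNA. That of Lyz1 rests on 4 reads under kidney. Pooled with Lyz2, the levels were 75.1 RPKM under brain and 4.60 RPKM under kidney, a smaller contrast.

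Cell type lists differed along with this contrast and are given beside it. Over all mRNAs tested, 27.0% were over 2-fold higher under brain and 32.5% under kidney. All 12 enterocyte genes were over 2-fold higher under the brain label, with sums of 64558 against 1628 RPKM and none at 0 in either library. The most dense were the apolipoproteins Apoa1 (30284 against 159 RPKM) and Apoa4 (3368 against 27.5 RPKM), the fatty acid carrier Fabp2 (24021 against 1095 RPKM) and the peptidase Anpep (3690 against 49.5 RPKM). No goblet cell gene of 10 was over 2-fold higher under brain, and 5 were under kidney, with sums of 8198 against 19247 RPKM and Spdef at 0 under brain. Clca1 had 3237 and 9861 RPKM, the mucin Muc2 596 and 2486 RPKM, and Fcgbp, a mucus protein, 1856 and 2152 RPKM. Of 9 listed colonocyte genes, 7 were over 2-fold higher under kidney and 2 under brain, with Aqp8 and Ly6g6c at 0 under brain. The most dense of them, the keratin Krt20, had 10346 RPKM under brain and 1870 RPKM under kidney, against the direction of most of the list, while Car1 had 1.92 and 434 RPKM, Guca2b 421 and 19.3 RPKM, and Aqp4 43.1 and 403 RPKM. Enteroendocrine genes were over 2-fold higher under brain for 7 of 11 and under kidney for none, and Gip, an incretin, was at 0 under kidney. The granins Chgb (4567 RPKM) and Chga (1268 RPKM) and the peptide hormone Cck (1277 RPKM) were most dense under the small intestine label, and secretin (Sct) had 208 RPKM under brain and 78.1 RPKM under kidney. The part of cell composition in the ratios of the 7 mRNAs was not tested.

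Of the Paneth cell list, which includes Lyz1, 17 of 18 genes were listed. Of 15 tested, 7 were over 2-fold higher under brain and 4 under kidney, against 27.0% and 32.5% of all mRNAs. Members of the list did not share 1 direction. Itln1, a lectin of Paneth and goblet cells, had 1367 RPKM under brain and 20.1 RPKM under kidney. The pentraxin Mptx2 had 366 and 1.81 RPKM, while its relative Mptx1 had 22.5 and 2367 RPKM. Guca2a, the precursor of guanylin, had 1026 and 4628 RPKM, and Nod2 had no read in any library. Mmp7, the protease that cuts pro-defensins, was named after its values were seen. It had 266 RPKM under brain (2270 reads) and 5.93 RPKM under kidney (36 reads), a ratio of 45.0 (32.4 to 64.4), with at most 13 reads in each of the other 4 libraries.

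**Figure D4:**
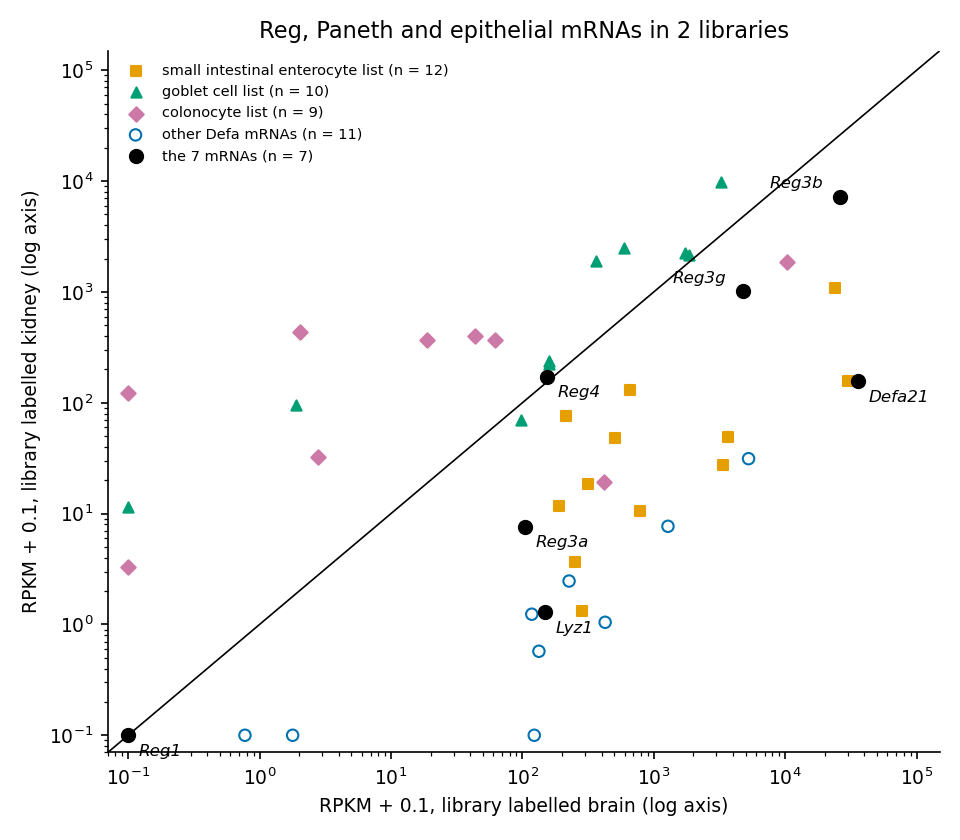
RPKM + 0.1 of the 7 mRNAs, the other Defa mRNAs and 3 epithelial cell lists in the libraries labelled brain (horizontal) and kidney (vertical), on log axes with a line of equal density. Defa21 and Lyz1 lie far below the line, Reg3b and Reg3g lie nearer to it, all 12 enterocyte genes lie below it at varied distances, and Reg4 lies close to it.

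Of 16 genes upstream of Reg3 transcription that were tested, 5 were over 2-fold higher under brain and 6 under kidney, counts near the 27.0% and 32.5% of all mRNAs. Stat3, the transcription factor, had 128 and 67.4 RPKM, and Irak4, a kinase of Toll-like receptor signalling, had 51.5 and 9.86 RPKM. Jak1 (93.9 RPKM) and Il33 (65.2 RPKM) were most dense under the lung label. Il17a had no read in any library. Il22 and its receptor chain Il22ra1 were singled out after their values were seen. All 48 reads of Il22 came from the brain-labelled library, at least 11.4-fold above what 3 reads would give under kidney. Il22ra1 had 8.63 RPKM under brain and 3.25 RPKM under kidney. Other members of the list did not share this direction. Il22ra2 had 5.45 RPKM under brain and 5.73 RPKM under kidney. Socs3, Myd88, Tlr4 and Ahr had no read under brain, and 5.86, 12.2, 0.579 and 2.46 RPKM under kidney.

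The upstream sequences of Reg3b, Reg3g and Defa21 are shown because these 3 mRNAs were the most dense of the set, with Defa24 for comparison with Defa21. Each is the 120 bases before the start of the transcript on its own strand in GRCm39, at chr6:78347724-78347843 (Reg3b, plus strand), chr6:78445857-78445976 (Reg3g, minus strand), chr8:21515438-21515557 (Defa21, plus strand) and chr8:22224387-22224506 (Defa24, plus strand). Capitals mark TTCNNNGAA, the core of STAT sites, which reads alike on both strands, and TATAAA, the TATA box. Both strands were searched. The Reg3b stretch lies wholly within the annotated gene, since another transcript starts further upstream. Those of Reg3g, Defa21 and Defa24 overlap their genes only at the end next to the start. Which matches were found, and their positions, depend on the transcript start used.
Reg3b: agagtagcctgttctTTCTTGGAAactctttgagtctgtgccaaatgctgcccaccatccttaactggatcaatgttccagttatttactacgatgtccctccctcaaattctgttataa
Reg3g: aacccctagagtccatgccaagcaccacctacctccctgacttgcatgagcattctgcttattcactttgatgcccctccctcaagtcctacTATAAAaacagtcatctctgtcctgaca
Defa21: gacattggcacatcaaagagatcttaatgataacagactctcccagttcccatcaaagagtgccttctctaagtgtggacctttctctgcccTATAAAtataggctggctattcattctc
Defa24: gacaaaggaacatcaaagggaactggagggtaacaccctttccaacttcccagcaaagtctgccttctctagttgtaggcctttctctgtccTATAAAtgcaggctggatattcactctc

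Within 250 bases upstream, Reg3b was the only one of the 7 with the STAT core, at -242 and -105 from the transcript start. Outside the 7, Reg3d also had the core, at -238, though its only read was 1 under the heart label. The core occurred in 7.68% of 21648 promoters of that length. TATAAA was found for Reg3g (-162 and -28), Defa21 (-28), Defa24 (-28) and Reg2 (-33), and in 12.3% of all promoters. These are matches of letters and were not tested as binding sites. Of the Reg genes, Reg3b (78347640 to 78350455), Reg3a (78357692 to 78360810), Reg1 (78399694 to 78405828) and Reg3g (78443246 to 78445859) lie in 1 stretch of chromosome 6, with Reg3d and Reg2 between them, and Reg4 is on chromosome 3 (98129468 to 98144066).

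The libraries labelled small intestine and colon, which held brain and kidney markers, were compared as labelled. All 5 mRNAs with 10 or more reads were over 2-fold higher under the small intestine label, against 36.0% of 13596 mRNAs, and none under colon, against 31.7%. The ratios were 16.8 for Reg3b (12.4 to 23.2), 22.0 for Reg3g (11.8 to 46.2), 8.16 for Defa21 (5.12 to 13.8) and 16.5 for Lyz1 (2.73 to 675). For Reg4, with no read under colon, 12 reads gave at least 2.36-fold. With all libraries thinned to the lowest total of reads, 4 mRNAs passed 2-fold in place of 5. Lyz1 had 1 read under colon. Pooled with Lyz2 its order turned, with 4.71 RPKM under small intestine and 6.00 RPKM under colon. Levels under the small intestine label were 0.346% (Defa21) to 5.54% (Lyz1) of those under brain, with a median of 1.80% over 6 mRNAs. The 12 enterocyte genes were at 0.827% to 12.4% of their level under brain in the same library, with a median of 1.81%. Their summed level there was 765 RPKM, against 646 RPKM under colon, with none at 0 in either. The part of enterocyte or other intestinal material in these low values was not tested.

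The mRNAs whose densities over the 6 libraries lay nearest to those of each gene were found by the distance of log2(RPKM + 1), among 10953 mRNAs with 100 or more reads in a library. Nearest to Reg3b were Fabp2, Adamdec1 and Clca1, and nearest to Reg3g were Krt19, Klf5 and Plac8. Defa21 was nearest to Fabp6, an ileal bile acid carrier with 26090 RPKM under brain and 149 RPKM under kidney, followed by Defa24 and Apoa4. Reg4 was nearest to Mall, the goblet cell peptide Spink4 and the ribonuclease Ang4, which had 240 RPKM under brain and 207 RPKM under kidney. Reg3a was nearest to Ifi27l2b, 2010003K11Rik and Btnl2, and Lyz1 to Pxdc1, Pfkfb4 and Card9, each with reads under lung. Unlike Lyz1, Pxdc1 and Card9 were higher under lung (100.2 and 39.6 RPKM) than under brain (32.8 and 25.1 RPKM). These lists depended on the measure. By Pearson correlation in place of the distance, 2 of 3 neighbours were kept for Reg4 and 0 of 3 for each of the other 6 mRNAs, and with a pseudocount of 0.1 none was kept for Reg3a and Reg4. With 6 libraries they are descriptions, and the neighbours of Reg1 (Zfp469, Myh8 and Muc16) rest on at most 6 reads of Reg1 in a library.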

How the data were processed

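Ribosome footprints of the 6 tissue libraries were deposited by the authors as RPKM values, 1 per mRNA, in 1 table per library. As the Methods describe for the macrophage libraries, adapters were trimmed with cutadapt, reads under 15 nt were discarded, and STAR aligned the rest to 1 longest-CDS mRNA per gene (GRCm39, Ensembl release 107). Multi-mapped reads and those with more than 2 mismatches were dropped. These steps were taken to hold here. Dropping multi-mapped reads lowers the values of near-identical genes.

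Multiplied by CDS length, 100% of the deposited RPKM values came out as whole reads (tolerance 1e-06), giving 4504853 to 10635031 reads per library. Levels carry exact Poisson intervals, ratios exact binomial intervals and shares Wilson intervals, at 95%. PCR duplicates cannot be told apart, so all cover counting error only. In single ratios an mRNA without reads was set at 3 reads. In counts past a fold, an mRNA with fewer than 3 reads in the library compared against was set at 3 reads. Counts past a fold used mRNAs with 10 or more reads. CDSs, promoters and symbols came from GRCm39 with GENCODE release M39, and 18424 of 18437 mRNAs had a symbol. Windows of 29 nt were searched against 21648 representative mRNAs, and proteins were translated from the CDS and aligned globally with BLOSUM62. Python 3.11.15, numpy 2.4.6, scipy 1.17.1, pandas 2.3.3, biopython 1.88 and matplotlib 3.10.9 were used. Scripts were tested on simulated data.

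Named were the 7 mRNAs, the other listed Reg and Defa mRNAs, the 4 most dense mRNAs of each cell type or pathway list, list members with no read in any library, those at 0 beside a list's sum, and the 3 nearest mRNAs of each. The mRNAs and lists were chosen with earlier results of these data known. Alternatives covered scaling, thinning, the floor, the fold, the filter, the window length and the measure of likeness. The scaling of the shares over all mRNAs was added after seeing the data.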

Additional observations from a re-analysis of the deposited data

How the results depend on the processing

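With a limit of 20-fold in place of 10-fold, 3 mRNAs passed it in the library labelled brain (Reg3a, Reg3b and Defa21) and 1 in that labelled kidney (Reg3b). The other 26 settings of the 4 counts stayed within 1.5 times the value given, and counting unique windows leaves a ratio of 1 mRNA between libraries as it is by construction. No count or brain-to-kidney ratio changed direction. Scaling without Kri1 and the mitochondrially encoded mRNAs, or to the upper quartile, moved the brain-to-kidney ratio of 4 mRNAs outside its counting interval: Reg3b to 2.82 and 2.92, Reg3g to 3.67 and 3.80, Reg4 to 0.691 and 0.717, and Defa21 to 174.6 and 181.0. The mRNAs past 2-fold that were higher under brain made up 45.3% as given, 34.3% without Kri1 and 35.8% by the upper quartile. With a filter of 100 or more reads, the share over 2-fold higher under kidney was 15.5% in place of 32.5%. Under brain it was 30.7% in place of 27.0%, so the larger share was then under brain. Pooling near-identical genes turned several orders. Defa mRNAs pooled gave 3415 RPKM under brain but 16.0 RPKM under kidney and 20.6 RPKM under small intestine. Lyz1 with Lyz2 gave 75.1 RPKM under brain and 396 RPKM under lung. It gave 4.71 RPKM under small intestine, below 6.00 RPKM under colon and 26.3 RPKM under heart. Lyz1 alone had 8.25, 0.500 and 1.93 RPKM under these 3 labels. No paired analysis was possible because each label had 1 library. Depth limits Reg1 throughout, and Reg3a, Reg4, Lyz1 and Defa21 in libraries with few or no reads.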

Other observations

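Of 25 other antimicrobial mRNAs of mucosal surfaces listed, 18 were tested between the libraries labelled brain and kidney, and 6 were over 2-fold higher under brain and 7 under kidney, near the 27.0% and 32.5% of all mRNAs. The most dense were the mucus lectin Zg16 (1724 RPKM under brain and 2226 RPKM under kidney), the immunoglobulin transporter Pigr (1032 and 1944 RPKM), Itln1, and Wfdc2, a whey acidic protein family member with 1608 RPKM under lung. The ratio of Mptx1 to Mptx2 was 0.0614 (0.0519 to 0.0721) under brain and 1310 (690 to 2866) under kidney. Under the heart label Mptx1 had 297 reads and Mptx2 had 1, while goblet cell genes stood at a median of 2.18% of their level under kidney.

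Chosen after their values were seen, Saa1, an acute phase protein, had 624 RPKM under kidney and 2.83 RPKM under brain, and the beta-defensin Defb1 had 943 RPKM under the colon label, which held the kidney markers, from 879 reads, with at most 1 read in each of the other 5 libraries.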
